A study of Mus musculus with 102 samples.

Results

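Factor-rich poised enhancers without H3K27ac are 2313 regions of the mouse genome in embryonic stem (ES) cells of strain 129/Ola that stand on the authors' list of poised enhancers, have no listed H3K27ac and have 6 or more of 17 chromatin and RNA-processing proteins listed. They are 15.6% of the 14845 poised enhancers without listed H3K27ac and 11.8% of all 19567 poised enhancers, out of 67697 regions in the table. Each of them carries H3K4me1 and lacks H3K4me3 in that table. The regions were chosen by their measured values in 129/Ola cells, the number of proteins listed and the absence of H3K27ac, so both are described here and tested nowhere. The proteins were BAF155, BRG1, BAZ1A, SNF2H, WSTF, MED1, MED12, SUR2, SMC3, RUVBL1, RUVBL2, SSRP1, PHF5A, SRSF1, SRSF2, SAP18 and PHRF1, together called factors below.

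Enhancers are regulatory regions that act on promoters over a distance. Monomethylation of histone H3 lysine 4 (H3K4me1) marks them, trimethylation of the same residue (H3K4me3) marks promoters, and acetylation of lysine 27 (H3K27ac) marks enhancers in use. An enhancer with H3K4me1 and little H3K27ac is called poised, a state from which enhancers of later lineages are switched on when ES cells differentiate. MLL3 and MLL4 are the main enzymes that write H3K4me1 at enhancers, and chromatin remodelers, the Mediator complex and cohesin are known to gather at enhancers that are active.

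The values come from chromatin immunoprecipitation with sequencing (ChIP-seq). The readout that did not enter the choice of the regions is H3K4 methylation in R1 ES cells, a line of strain 129SV grown on mouse embryonic fibroblast feeders in serum-free medium. There, cells with the genotype MLL3/4 double catalytic dead (catalytic-dead cells), in which MLL3 and MLL4 lack enzyme activity, were compared with wild-type R1 cells, at 2 libraries per mark and line. The 129/Ola cells in which the regions and factors were mapped were kept on feeders and passaged feeder free before harvest, and no change of MLL3 or MLL4 is given for them. Of the 17 factors, 14 have 2 libraries, BAF155 and SMC3 have 3, and SSRP1 has 1. The regions therefore come from one ES cell line and the comparison from another, and the labels do not say whether each R1 line is a single clone.

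The deposited tables give 1 value per factor and region, and 1 fold enrichment per mark, line and peak. Counts of reads are not in them, so the depth is unknown, no spread between libraries can be had and no difference below has a replicate check or a p-value. Medians, quartiles and counts are descriptions, set beside the same over all peaks of a table and over 3 sets of regions: 12532 poised enhancers without H3K27ac with fewer than 6 factors (factor-poor poised enhancers), 4722 poised enhancers with listed H3K27ac, and 5554 active enhancers with 6 or more factors (factor-rich active enhancers). A factor counts as listed from a log2 enrichment of 0.58, a fold of 1.5, and an unlisted factor is below that level or was not measured. Antibodies differ in strength, so how often a factor is listed does not measure the amount of that protein.

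Chromosome 11 stood apart in the region table. Of its 1230 poised enhancers without H3K27ac, 25.5% (314) had 6 or more factors, against 14.7% on the other chromosomes together, where the share ran between 12.2% on the X chromosome (5 of 41) and 18.0% on chromosome 7. The excess ran along the whole chromosome: in 12 bins of 10 Mb the share lay between 18.5% and 30.6%, above that of chromosome 7 in each bin. Of the 17 factors, 7 were listed more often on chromosome 11 than on any other chromosome, and 3 of them stood furthest above the rest. SNF2H was listed at 44.5% of the poised enhancers without H3K27ac on chromosome 11, against 23.4% elsewhere. MED1 was listed at 36.7% on chromosome 11 and 17.1% elsewhere, and SRSF2 at 61.0% and 40.9%. The other 4 lay closer to the rest: MED12 at 23.6% on chromosome 11 and 17.1% elsewhere, RUVBL1 at 17.8% and 13.5%, SAP18 at 21.4% and 17.2%, and PHRF1 at 24.9% and 19.3%. Among regions with both H3K4me1 and H3K4me3, SNF2H was listed at 91.8% on chromosome 11 and 65.2% elsewhere, and MED1, SRSF2, BAF155, SUR2, SSRP1 and PHRF1 were also highest there. When the 14 factors other than SNF2H, MED1 and SRSF2 were counted, 1130 regions of the genome had 6 or more. The excess of chromosome 11 was then smaller but still there: 10.8% of its regions passed, against 5.70% to 9.28% on the other autosomes and 5 of 41 on the X chromosome. At 5 or more of the 14 it was 18.6% on chromosome 11 and at most 15.4% on another autosome. What sets chromosome 11 apart was not tested. For the R1 lines, the median log2 ratio of each mark and the differences by SMC3 are given with and without its 314 regions. Most other R1 values include them.

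**Figure D1:**
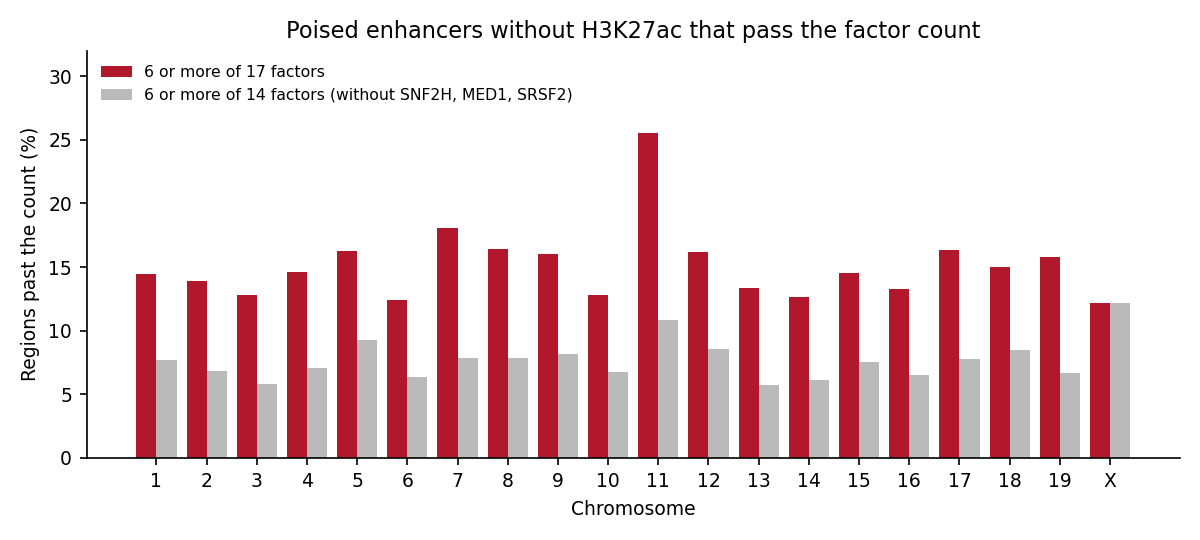
Percent of poised enhancers without H3K27ac on each chromosome (x axis) that have 6 or more of the 17 factors (red bars) or 6 or more of the 14 factors that remain without SNF2H, MED1 and SRSF2 (grey bars). The red bar of chromosome 11, 25.5%, stands above that of chromosome 7, 18.0%, and the grey bar of chromosome 11, 10.8%, stands above those of the other autosomes, which reach 9.28%.

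Most of the regions were near the threshold of the choice. They had 7 factors in the median and 7.52 in the mean, 36.3% (839) had exactly 6, 77.0% had 6 to 8, and 12.9% (298) had 10 or more. A single region had 16 factors and a single region 15. Just outside the threshold lay 1239 poised enhancers without H3K27ac with 5 factors, whose median width of 307 bp compares with 294 bp at 6 factors. Regions at 6 and at 5 factors were also alike in the R1 lines, with a median log2 ratio of H3K4me1 in catalytic-dead over wild-type cells of -0.54 at 6 factors and -0.59 at 5.

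The chromatin remodelers differed widely among themselves. SNF2H, the ATPase of the ISWI remodelers, was listed at 61.1% (1414) of the factor-rich poised enhancers, and its partner BAZ1A at 45.5% (1053). BRG1, the ATPase of the BAF remodelers, was listed at 36.4% (841), and BAF155, a scaffold of the same complexes, at 23.2% (537). WSTF, another partner of SNF2H, was the least frequent factor, at 19.2% (444), but had the highest level where it was listed, with a median log2 enrichment of 1.27 (quartiles 0.94 and 1.73). The medians of the other 16 factors lay between 0.91 for RUVBL2 and 1.08 for SSRP1.

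Among Mediator subunits, which link enhancer-bound factors to RNA polymerase II, MED1 was listed at 46.0% of the regions, SUR2 at 41.4% and MED12, of the kinase module, at 40.5%. SMC3, a core subunit of the cohesin ring that holds chromatin loops, was listed at 51.1% (1183). The AAA ATPases RUVBL1 and RUVBL2, which serve several remodeling complexes, were listed at 40.9% and 44.4%, and SSRP1, of the nucleosome-handling chaperone FACT, at 36.5%. The SR splicing proteins SRSF2 and SRSF1 were among the most frequent, at 68.1% (1575) and 58.9% (1363), and the spliceosome subunit PHF5A was listed at 40.6%. SAP18, found in histone deacetylase and RNA-processing complexes, reached 49.1%, and the PHD and RING finger protein PHRF1 48.6%.

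Set beside factor-rich active enhancers, which differ by H3K27ac, 6 of the 17 factors were more frequent at the poised regions. WSTF was listed at 19.2% of the poised and 11.9% of the active regions. PHF5A was listed at 40.6% and 37.4%, MED12 at 40.5% and 38.3%, and BRG1 at 36.4% and 34.3% of the poised and the active regions. BAZ1A (45.5% and 44.7%) and RUVBL1 (40.9% and 40.0%) lay closer together. The other 11 were less frequent at the poised regions. SSRP1 had the widest gap, at 36.5% of the poised and 58.0% of the active regions, followed by PHRF1 at 48.6% and 63.2%. Active regions had more factors in all, with a mean of 8.29 against 7.52 at the poised regions. The listed enrichments were of similar height in these 2 sets: their median log2 was 0.99 over the 17384 values of the factor-rich poised enhancers and 0.96 in factor-rich active enhancers. In factor-poor poised enhancers it was 0.87, and each of the 17 factors had a lower median there than at the factor-rich poised enhancers. Only 129 of the 17384 values reached a log2 enrichment of 2, and 83 of these belonged to WSTF and 21 to SMC3.

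**Figure D2:**
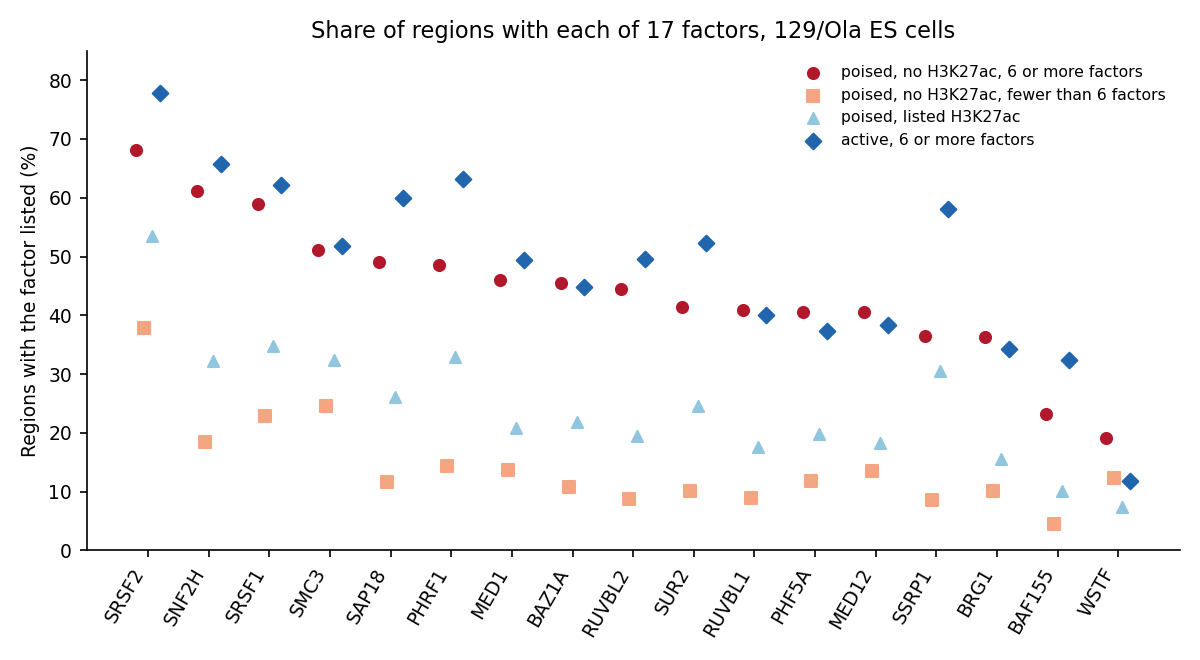
Percent of regions (y axis) at which each of the 17 factors (x axis) is listed in 129/Ola cells, for factor-rich poised enhancers without H3K27ac (red circles), factor-poor poised enhancers (orange squares), poised enhancers with listed H3K27ac (light blue triangles) and factor-rich active enhancers (blue diamonds). At the red circles SRSF2 is at 68.1% and WSTF at 19.2%, and SSRP1 shows the widest gap between red and blue.

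The region with the most factors, 326 bp at chr10:39395872-39396197 (build mm9), had all but SUR2. Its log2 enrichments ran between 0.98 for SRSF1 and 2.31 for SRSF2, with MED12 at 2.07 and SNF2H at 1.65. It overlapped an R1 H3K4me1 peak with a fold enrichment of 1.20 in catalytic-dead and 3.45 in wild-type cells. The region with 15 factors, chr7:130349118-130349426, lacked BAZ1A and WSTF, and its highest values were 2.29 for SMC3 and 1.82 for PHF5A. Its H3K4me1 enrichment was 1.45 in catalytic-dead and 3.03 in wild-type cells. The next 3 had 14 factors each. At chr9:62397943-62398177 WSTF had a log2 enrichment of 4.03 and SMC3 2.33, far above the other 12, of which the highest was BAF155 at 1.65. At chr11:79080835-79081043 the 3 Mediator subunits led, MED12 at 1.79, SUR2 at 1.77 and MED1 at 1.69, and WSTF was not listed. At chr2:166667224-166667616, MED12 at 1.76 led and neither BRG1 nor SMC3 was listed. These regions show that a high count was reached with different leading proteins: SRSF2, SMC3, WSTF and, in 2 of the 5, MED12.

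Most factors peaked elsewhere. WSTF peaked at 4.32 at chr1:133137070-133137278, a region of 209 bp with 10 factors whose second highest value was 1.46 for SSRP1. SMC3 peaked at 2.73 at chr1:137566909-137567561, where the next factor, SAP18, was at 1.25. SAP18 itself peaked at 2.28 at chr6:91426699-91427016, a region with 6 factors, and MED1 at 2.22 at chr14:13170948-13171162, with BRG1 at 1.95. BRG1 reached 2.04 at chr9:98604800-98605008 with BAZ1A at 1.80 beside it. Over all 2313 regions SRSF2 was most often the strongest listed factor, at 14.4% (334), ahead of WSTF at 9.12% (211), SSRP1 at 9.04% (209), SRSF1 at 8.82% (204) and SMC3 at 8.73% (202). Where WSTF was listed, it was the strongest factor in 47.5% of cases, and RUVBL2 in 4.28%.

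At the factor-rich poised enhancers, proteins of the same complex were listed together about as often as their single shares give. BAF155 and BRG1 shared 189 of the 2313 regions (8.17%), which is 15.9% of the regions with either of them and 0.97 times the product of both shares. SNF2H and BAZ1A shared 633 (27.4%), 0.98 times the product, and SNF2H and WSTF 254 (10.98%). All 3 Mediator subunits were listed at 166 regions (7.18%), although 82.1% had at least 1 of them. RUVBL1 and RUVBL2, which form a joint ring, shared 440 (19.0%), 1.05 times the product, and SRSF1 and SRSF2 shared 912 (39.4%). The set of all poised enhancers without H3K27ac asked for no high number of factors, only for 1 or more of 13 names. That is a choice by number too, so its ratios are not free of it. In this set the ratio to the product was 1.61 for BAF155 with BRG1, 1.48 for SNF2H with BAZ1A and 1.95 for the RuvBL pair. It was lower for the pairs of Mediator subunits, at 1.33 to 1.41, and for SRSF1 with SRSF2, at 1.03. SNF2H with WSTF, at 0.89, and BAZ1A with WSTF, at 0.87, were listed together less often than the product gives. Pairs not grouped in one complex ran from 0.76 for WSTF with SMC3 to 2.09 for BAF155 with RUVBL2. BAF155 with SAP18 was at 1.94 and SSRP1 with PHRF1 at 1.79, both above BAF155 with BRG1. High ratios were thus not particular to proteins of the same complex. Among the factor-rich poised enhancers, SMC3 stood beside at least 1 Mediator subunit at 958 regions (41.4%). At factor-rich active enhancers the shares were 11.04% for BAF155 with BRG1, 29.9% for SNF2H with BAZ1A, 10.5% for the 3 Mediator subunits, 22.0% for the RuvBL pair and 43.2% for SMC3 with Mediator. SNF2H with WSTF went the other way, at 10.98% of the poised and 7.44% of the active regions.

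Where 2 factors were both listed, their levels went together weakly. Spearman's rho of the 2 log2 enrichments was above 0 in each of the 136 pairs of factors, between 0.0064 and 0.33 with a median of 0.19, over 83 to 958 regions a pair. BRG1 with BAZ1A and SNF2H with RUVBL2 stood at the upper end, both at 0.33, and BAZ1A with WSTF at the lower end. These pairs share regions and region widths: the mean log2 enrichment of a region had a rho of -0.54 with its width, so narrow regions had higher values. WSTF was listed with another factor less often than the product of both shares gives in 15 of its 16 pairs, a ratio of 0.82 with SUR2 and 0.90 with SMC3, but 90 of the 120 pairs without WSTF were below 1 as well. Choosing regions by their number of factors alters such ratios by itself. The 1 or more of 13 names asked of every poised enhancer is such a choice too. In all poised enhancers without H3K27ac 122 of the 136 pairs were above 1, up to 2.09 for BAF155 with RUVBL2, and 13 of the 14 below 1 were pairs with WSTF.

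The 83 regions with a WSTF log2 enrichment of 2 or more were narrow, with a median width of 239 bp, against 280 bp at the 361 regions with weaker WSTF and 296 bp at the 1869 without it. They overlapped an R1 H3K4me1 peak in 43.4% of cases, against 56.5% with weaker WSTF and 54.0% without it. In the factor-poor set, 263 regions had WSTF at this level, with a median width of 245 bp and an H3K4me1 peak in 51.0% of cases.

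Factor-rich poised enhancers were narrow regions. Their median width was 289 bp (quartiles 235 and 415 bp), against 361 bp for factor-poor poised enhancers, 642 bp for poised enhancers with listed H3K27ac and 464 bp for factor-rich active enhancers, and 52.8% were under 300 bp, against 38.0% of the factor-poor set. Over all poised enhancers without H3K27ac the number of factors had a Spearman's rho of -0.23 with width. Width and the listed enrichment are tied in the table, as above, and the part of width in the number of factors was not tested.

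The regions lay apart from each other and at middle distances from promoters and active enhancers. The median distance to the nearest region with H3K4me3 was 15.5 kb, against 18.0 kb for factor-poor poised enhancers and 10.2 kb for factor-rich active enhancers. The nearest active enhancer was 32.4 kb away in the median, against 38.9 kb for the factor-poor set, 20.9 kb for poised enhancers with listed H3K27ac and 12.4 kb for factor-rich active enhancers. The next region of the same kind was 164 kb away in the median. Of the regions, 187 (8.08%) fell into runs of 2 or 3 with gaps of at most 12.46 kb between neighbours. There were 3 runs of 3 regions: chr11:76900566-76914266, chr11:101184741-101188773 and chr7:86925750-86934875, with 6 to 11, 7 to 9 and 7 to 8 factors. Genes near the regions are not named, because no annotation of build mm9 was used here.

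The comparison in R1 cells asks how H3K4 methylation at these regions differs when MLL3 and MLL4 have lost their enzyme activity. Catalytic-dead cells had less H3K4me1 at most of those with a peak. An R1 H3K4me1 peak overlapped 54.0% (1249) of the regions. Over these the median fold enrichment was 2.05 in catalytic-dead cells (quartiles 1.27 and 3.10) and 3.03 in wild-type cells (quartiles 2.73 and 3.35). The median log2 ratio was -0.58 (quartiles -1.32 and 0.07), and 72.9% of the regions were below 0, against 72.5% of the factor-poor set, 70.8% of all distal H3K4me1 peaks and 55.2% of all H3K4me1 peaks. The wild-type values were close together and the catalytic-dead values spread widely, so the regions differed mainly in what remained in catalytic-dead cells. This was not particular to them: over all H3K4me1 peaks the quartiles were 1.44 and 4.13 in catalytic-dead and 2.56 and 3.32 in wild-type cells. The median log2 ratio of the factor-rich poised enhancers was below 0 on each of the 19 autosomes, between -1.01 on chromosome 1 and -0.33. It was -0.57 without chromosome 11 and -0.61 on it.

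Of the 1249 regions, 434 (34.7%) had H3K4me1 at least 2-fold lower in catalytic-dead cells, against 28.4% of all H3K4me1 peaks of the table, and 54 (4.32%) at least 2-fold higher, against 15.2% of all peaks. This call is one of size only. Most of the matched peaks, 87.3%, were distal by the authors' grouping. At distal peaks 37.9% of the factor-rich poised enhancers were at least 2-fold lower, against 37.7% of all distal peaks, so the decrease was no more frequent there than at distal peaks in general. At least 2-fold higher at distal peaks were 3.21%, against 5.66% of all distal peaks and 2.81% of the factor-poor set. The distal median log2 ratio was -0.68 for the factor-rich poised enhancers, -0.72 for the factor-poor set, -0.67 for poised enhancers with listed H3K27ac, -0.78 for factor-rich active enhancers and -0.65 for all distal peaks. The 158 regions with a proximal peak had a median fold enrichment of 3.21 in catalytic-dead and 2.96 in wild-type cells, a median log2 ratio of 0.02. The log2 ratio showed no steady course with the number of factors, with -0.57 at 7 factors, -0.55 at 8, -0.68 at 9 and -0.58 at 10 or more. With the 25% of peaks weakest over both lines left out, a filter on values that enter the ratio, the median was -0.25 and 15.1% were at least 2-fold lower. No share of all peaks under this filter is given here, so the 15.1% cannot be set beside one.

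H3K4me2 was also lower in catalytic-dead cells at most of the regions where it had a peak. Its peaks overlapped 25.1% (581) of the regions, with a median fold enrichment of 3.44 in catalytic-dead and 4.13 in wild-type cells and a median log2 ratio of -0.34 (quartiles -1.01 and 0.15). At least 2-fold lower were 147 (25.3%), against 23% of all H3K4me2 peaks, and at least 2-fold higher were 17 (2.93%), against 1.91% of all peaks. The medians of H3K4me1 and H3K4me2 come from different regions. At the 533 regions with a peak of both, the median log2 ratio was -0.07 for H3K4me1 and -0.34 for H3K4me2, and H3K4me1 had the lower ratio at 104 (19.5%). At distal peaks 28.8% of the factor-rich poised enhancers had H3K4me2 at least 2-fold lower, against 31.8% of all distal H3K4me2 peaks and 38.9% of the factor-poor set. The distal median log2 ratio was -0.46 for the factor-rich poised enhancers, equal to that of all distal H3K4me2 peaks to 2 decimals, and -0.69 for factor-poor poised enhancers, -0.63 for poised enhancers with listed H3K27ac and -0.90 for factor-rich active enhancers. The gap to the factor-poor set had the same direction on 17 of the 19 autosomes. The median fold enrichment of distal H3K4me2 in wild-type cells was 4.02 at the factor-rich and 4.04 at the factor-poor poised enhancers, while in catalytic-dead cells it was 3.18 at the factor-rich and 2.56 at the factor-poor ones. Without chromosome 11 the median over all 506 matched regions was -0.30, and on chromosome 11, with 75 regions, it was -0.59, while the factor-poor set had -0.57 without chromosome 11 and -0.63 on it, so the gap was small on chromosome 11. By the number of factors listed, the H3K4me2 median was -0.70 at 1 factor, -0.60 at 2, -0.50 at 3, -0.44 at 4, -0.34 at 5 and -0.31 at 6, and beyond that it showed no steady course, with -0.45 at 7 and -0.31 at 8. The median width fell along this course, from 454 bp at 1 factor to 294 bp at 6, and its part was not tested. Over all matched regions the H3K4me2 gap to the factor-poor set was 0.23, and 0.16 after weighting to the widths of the factor-rich regions. Up to 235 bp the medians were -0.28 at the factor-rich and -0.38 at the factor-poor poised enhancers. They were -0.41 and -0.42 at 236 to 289 bp, -0.48 and -0.46 at 290 to 415 bp, and -0.32 and -0.67 above 415 bp. The gap was widest above 415 bp. With the weakest 25% of peaks left out, the median of the factor-rich poised enhancers was -0.07.

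H3K4me3, which the 129/Ola table does not list at these regions, had an R1 peak at 9.81% (227) of them. The median fold enrichment was 4.74 in catalytic-dead and 4.21 in wild-type cells, a median log2 ratio of 0.05 (quartiles -0.29 and 0.50). At least 2-fold lower were 8 regions (3.52%), against 4.48% of all H3K4me3 peaks, and at least 2-fold higher were 19 (8.37%), against 3.15% of all peaks. Among distal H3K4me3 peaks the share at least 2-fold higher was 8.19% for the factor-rich and 8.68% for the factor-poor poised enhancers, against 5.04% of all distal peaks. The median was 0.33 at the 27 regions on chromosome 11 and 0.03 at the 200 others.

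**Figure D3:**
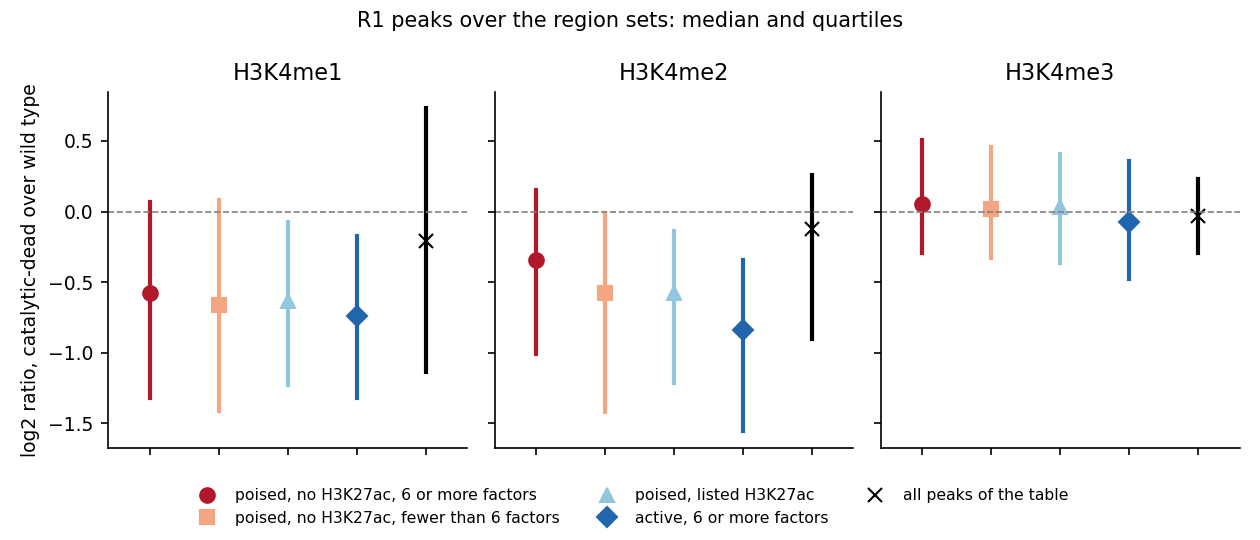
Median (symbols) and quartiles (lines) of the log2 ratio of fold enrichment in catalytic-dead over wild-type R1 cells at the peaks that overlap each set of regions, and at all peaks of the table (black crosses), for H3K4me1, H3K4me2 and H3K4me3. For the factor-rich poised enhancers (red circles) the medians are -0.58, -0.34 and 0.05, and for H3K4me2 the red circle lies above the other 3 sets.

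How much H3K4me1 remained in catalytic-dead cells went with the other H3K4 marks that had a peak at the region. An H3K4me1 peak alone was found at 716 of the factor-rich poised enhancers (31.0%), where the median fold enrichment was 1.57 in catalytic-dead and 3.04 in wild-type cells, and 49.3% were at least 2-fold lower. H3K4me1 with H3K4me2 was found at 317 (13.7%), where it was 2.39 in catalytic-dead and 3.06 in wild-type cells, and 23.3% were at least 2-fold lower. All 3 marks had a peak at 216 (9.34%), where H3K4me1 was 3.62 in catalytic-dead and 2.86 in wild-type cells, and 3.24% were at least 2-fold lower. The median log2 ratio was -0.97, -0.41 and 0.33 in these 3 classes. The order was the same at factor-poor poised enhancers (-1.04, -0.55 and 0.18) and at factor-rich active enhancers (-1.01, -0.76 and -0.25), so it was not particular to the factor-rich poised regions. No R1 peak of any of the marks overlapped 43.9% (1016) of the regions, against 37.7% of factor-poor poised enhancers and 25.6% of factor-rich active enhancers. These unmatched regions had a median width of 268 bp, against 306.5 bp at those with an H3K4me1 peak alone and 364 bp at those with all 3 marks. Of the 590 factor-rich regions of up to 235 bp 42.0% had an H3K4me1 peak, against 45.2% of factor-poor regions of that width. Of those of 417 bp or more 71.2% had one, against 73.9% of factor-poor regions that wide.

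**Figure D4:**
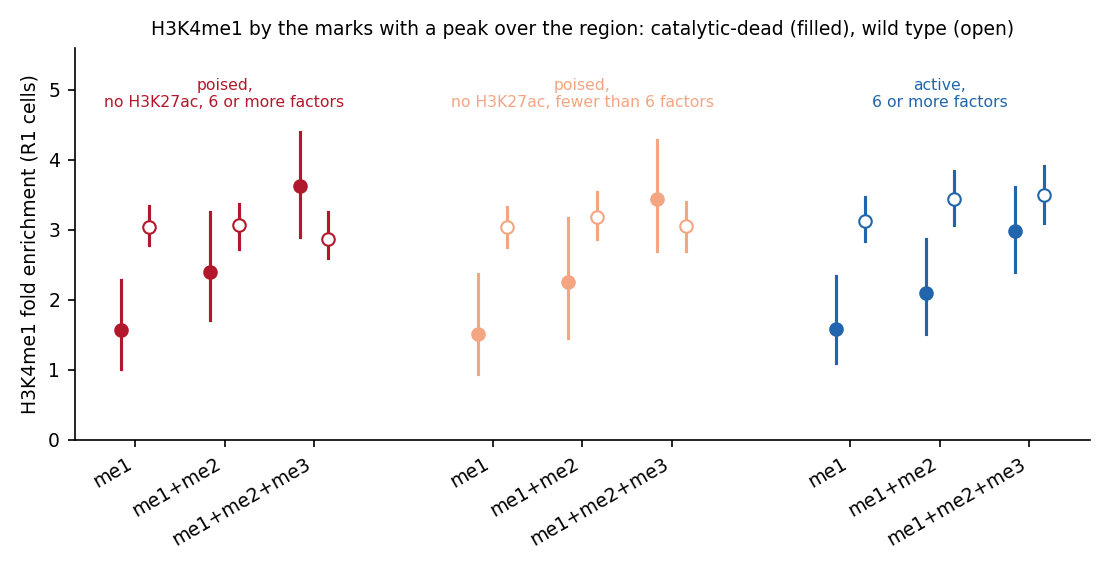
H3K4me1 fold enrichment in catalytic-dead (filled circles) and wild-type (open circles) R1 cells, as medians with quartiles (lines), at regions where H3K4me1 alone (me1), H3K4me1 and H3K4me2 (me1+me2) or all 3 marks (me1+me2+me3) have a peak. At factor-rich poised enhancers (red) the catalytic-dead medians are 1.57, 2.39 and 3.62, while the wild-type medians stay between 2.86 and 3.06.

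Where both marks had a peak, a 2-fold decrease of H3K4me1 mostly came with a 2-fold decrease of H3K4me2. A 2-fold increase of H3K4me1 came with one of H3K4me2 at a smaller share. Over all 581 regions with an H3K4me2 peak, H3K4me2 was at least 2-fold lower at 25.3% and at least 2-fold higher at 2.93%. Over all H3K4me2 peaks these shares were 23% and 1.91%, and both coincidences lay above them. Of the 434 regions with H3K4me1 at least 2-fold lower, 81 also had an H3K4me2 peak, and at 74 of these (91.4%) H3K4me2 was at least 2-fold lower too. The factor-poor set had the same coincidence, at 731 of 793 such regions (92.2%). Of the 761 regions with a smaller change of H3K4me1, 406 had an H3K4me2 peak, which was at least 2-fold lower at 67. Of the 54 regions with H3K4me1 at least 2-fold higher, 46 had an H3K4me2 peak and 29 an H3K4me3 peak. Among all 1249 regions with an H3K4me1 peak these were 533 and 216. H3K4me2 was at least 2-fold higher at 8 of the 46 (17.4%) and changed by less at 38. In the factor-poor set it was at least 2-fold higher at 11 of 191 such regions (5.76%). The peaks of the marks overlap each other and were measured in the same pair of lines.

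Among the 17 factors, SMC3 split the regions most for H3K4me1 and H3K4me2. At the 666 regions with SMC3 the median log2 ratio of H3K4me1 was -0.46, and at the 583 without it -0.72. At least 2-fold lower were 30.9% with and 39.1% without SMC3, and the median was higher with SMC3 on 16 of 19 autosomes. For H3K4me2 the median was -0.18 at 333 regions with and -0.52 at 248 regions without SMC3, higher with SMC3 on 16 of the 18 autosomes with at least 5 regions on each side. Both differences, 0.26 for H3K4me1 and 0.34 for H3K4me2, were 0.26 and 0.33 without chromosome 11 and 0.27 and 0.30 at distal peaks, but 0.06 and -0.14 in the deposited layout of the peak values. The level of SMC3 went the same way: where it was at or above its median log2 of 0.99 the H3K4me1 median was -0.38, and below it -0.54. Regions with SMC3 had a mean of 7.86 factors and those without 7.16, and widths of 323 and 314 bp in the median. A Mediator subunit beside SMC3 made little difference to H3K4me1, with -0.47 at 533 regions with both and -0.44 at 133 with SMC3 and no Mediator subunit. For H3K4me2 the medians lay further apart, at -0.23 at 264 regions with both and 0.01 at 69 with SMC3 and no Mediator subunit. Without SMC3 they were -0.50 at 202 regions with a Mediator subunit and -0.57 at 46 with neither.

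Factor-poor poised enhancers showed the same split by SMC3, with a median log2 ratio of H3K4me1 of -0.33 with and -0.76 without it, and so did factor-rich active enhancers, with -0.57 with and -0.91 without it. SMC3 was also more frequent where H3K4me2 and H3K4me3 had R1 peaks: it was listed at 63.4% of the factor-rich poised enhancers with all 3 marks, 53.6% of those with H3K4me1 and H3K4me2, 50.1% of those with H3K4me1 alone and 48.3% of those without a peak. Within the class with H3K4me1 alone the medians were -0.92 with and -1.06 without SMC3, within the class with H3K4me1 and H3K4me2 -0.28 with and -0.50 without, and within the class with all 3 marks the order turned, at 0.28 with and 0.38 without. BAZ1A went the other way along these classes, at 35.2% of the regions with all 3 marks and 49.0% of those without a peak, and so did PHRF1, at 39.8% and 51.5%.

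The other 16 factors split the regions by less for H3K4me1 and H3K4me2. RUVBL1 had a median log2 ratio of H3K4me1 of -0.50 with and -0.64 without it. PHRF1 had -0.67 with and -0.52 without, SRSF1 -0.64 and -0.50, and MED12 -0.67 and -0.54, so regions with these proteins had the lower ratio. For BAF155, WSTF, RUVBL2, PHF5A and SAP18 the medians with and without the factor differed by 0.02 or less after rounding. For H3K4me2, MED1 had -0.48 with and -0.27 without, and WSTF -0.50 with and -0.30 without. For H3K4me3, with at most 227 regions, BAZ1A, WSTF and SUR2 split the regions by more than SMC3: the difference, with minus without, was -0.14 for BAZ1A, -0.13 for WSTF, 0.12 for SUR2 and 0.10 for SMC3. For H3K4me1 and H3K4me2 the higher median fell on both sides across autosomes for each of these: with RUVBL1 it was higher on 14 of 19 for H3K4me1, and with PHRF1 on 7. For H3K4me3 it fell on both sides for BAZ1A, over 9 autosomes, and SUR2, over 10. WSTF had enough regions on 1 autosome only, so it could not be compared across autosomes.

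**Figure D5:**
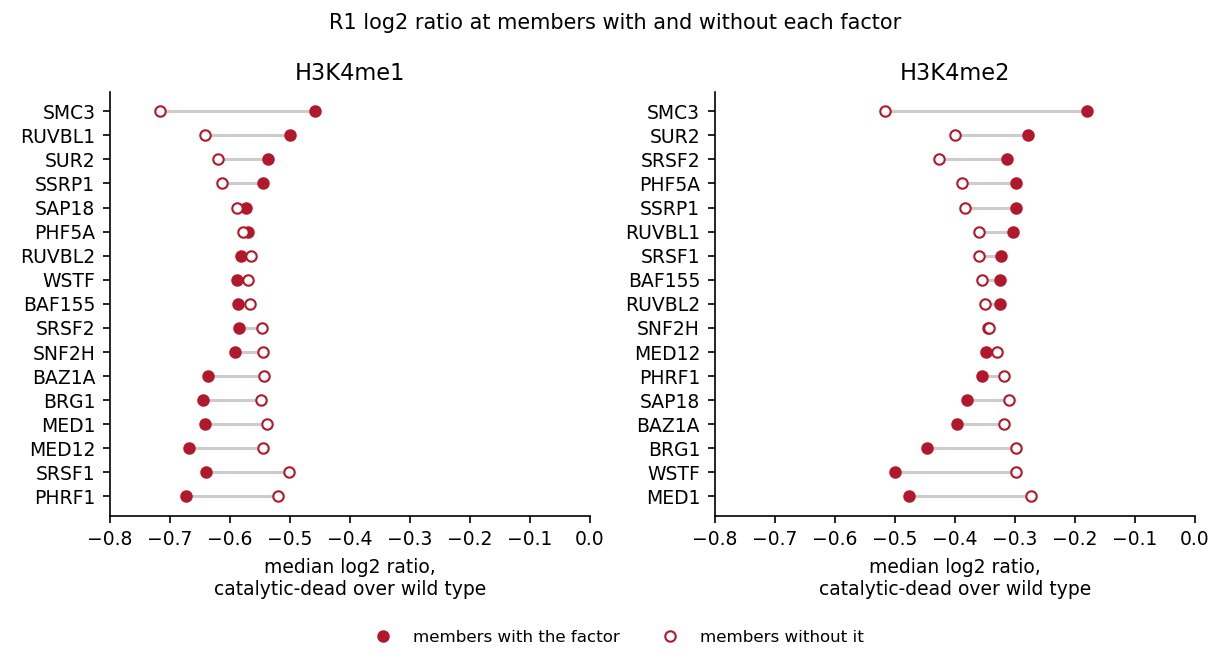
Median log2 ratio of fold enrichment in catalytic-dead over wild-type R1 cells (x axis) at factor-rich poised enhancers with (filled) and without (open) each of the 17 factors (y axis), for H3K4me1 and H3K4me2, ordered by the difference. SMC3 has the widest gap in both, -0.46 with and -0.72 without it for H3K4me1.

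Single regions with strong H3K4me1 peaks ran in both directions. Among the 443 regions whose peak averaged more than 2.82 over the lines, the median of the table, the largest decrease was at chr2:92542709-92542917, where the fold enrichment was 1.22 in catalytic-dead and 4.42 in wild-type cells, a log2 ratio of -1.85. It had 8 factors, led by WSTF at a log2 enrichment of 1.70. At chr12:33693558-33694116, with 8 factors, H3K4me1 was 1.52 in catalytic-dead and 4.90 in wild-type cells, and H3K4me2 0.82 and 4.13. At chr11:32734161-32736094, the widest of these at 1934 bp, H3K4me1 was 1.61 in catalytic-dead and 4.10 in wild-type cells. The remaining 2 of the 5 largest decreases had log2 ratios of -1.62 and -1.45, and 4 of the 5 peaks were distal.

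The largest increase was at chr5:75539003-75539294, a region with 7 factors led by SMC3 at 1.66. H3K4me1 was 4.76 in catalytic-dead and 1.46 in wild-type cells there, H3K4me2 9.41 and 3.35, and H3K4me3 6.95 and 3.79, so all 3 marks were higher in catalytic-dead cells. At chr2:75502230-75502438, led by PHF5A at 1.77 and SMC3 at 1.48, H3K4me1 was 6.16 in catalytic-dead and 2.30 in wild-type cells. At chr9:108466614-108466822 it was 6.56 in catalytic-dead and 2.46 in wild-type cells, with SSRP1 leading at 1.39. The remaining 2 of the 5 largest increases had log2 ratios of 1.41 and 1.37, and 3 of the 5 peaks were proximal.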

How the data were processed

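Histone marks and chromatin proteins were measured by ChIP-seq in 102 mouse ES cell libraries. Per the submitters' processing notes the build was mm9, with Bowtie, Picard and MACS2 for the 129/Ola libraries and, for the R1 libraries, deepTools 2.5.1 and 2.5.3, MACS2 2.1.0.20150731, BWA 0.7.13-r1126 and Picard 2.11.0. Neither their roles nor any pooling of replicates is stated there. Libraries of the other lines were not used here.

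The authors' deposited region tables hold 1 log2 enrichment per factor, and presence only for H3K4me1 and H3K4me3. The poised and active lists meet at an H3K27ac log2 of 1, and a region needed 1 or more of 13 names to be listed, 12 of which are among the 17 factors, so shares of factors are raised by that selection. A further 11 names match no 129/Ola library and were not used. The deposited R1 peak tables give a fold enrichment (ratio) per line, relative to an unstated background. Their values run through the chromosomes in number order and their positions in text order, and were put back in step. The Spearman correlation of width with H3K4me2 enrichment of wild-type cells on chromosomes 2 to 19 was 0.0055 as deposited and 0.67 after, against 0.66 on chromosome 1, where both orders coincide.

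Each region was matched to the peak with the longest overlap, of at least 1 bp. The log2 ratio had no pseudocount, and 2 zeros in H3K4me2 were set to the lowest positive value divided by 2. Decreased and increased mean at least 2-fold, the deposited class of change with 0 exceptions. With 1 value per line no test was possible. Alternatives covered factor count, layout, overlap, centring, pseudocount, weak peaks, width and chromosome 11. Regions were named by a rule: the 5 with the most factors, the highest value of a factor, the 5 largest decreases and increases of H3K4me1 among stronger peaks, and the longest runs. The regions, sets and lists were chosen with earlier results of these data known. The scripts, in Python 3.11.15 with pandas 2.3.3, numpy 2.4.6, scipy 1.17.1 and matplotlib 3.10.9, were tested on simulated data.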

Additional observations from a re-analysis of the deposited data

How the results depend on the processing

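No paired analysis was possible because the tables hold 1 value per line and no replicate values. An alternative counts as a change below where its value left the reported value's 95% binomial interval, which covers counting over regions only. Of 159 values under alternatives 109 stayed inside, and 3 changed sign where the reported interval held a single sign. Changes of sign inside an interval that held both signs are not among these 3. The settings without chromosome 11, at distal peaks, with 14 factors, with SMC3 and in the deposited layout of differences were chosen after seeing the data.

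In the deposited layout H3K4me1 had a median log2 ratio of -0.35, with 31.5% of the regions decreased and 12.7% increased, the H3K4me2 median was -0.12, and 3.96% were increased in H3K4me3. The H3K4me1 difference turned to -0.10 against factor-poor poised and to -0.12 against factor-rich active enhancers, and for H3K4me2 these differences were 0.10 and 0.0088. With SMC3 minus without, H3K4me1 had 0.059 and H3K4me2 turned to -0.14. If the layout is out of step, it pairs most regions with values of other peaks.

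On chromosomes 1 and X, where both layouts coincide, H3K4me1 (81 regions) had a median of -0.99, with 49.4% decreased and 1.23% increased. H3K4me2 (32 regions) had -0.22 and 0% increased, and H3K4me3 (11 regions) 0.38 and 0% decreased. Centred on the median of all peaks, which shifts H3K4me1 ratios by 0.21 and H3K4me2 ratios by 0.13, H3K4me1 had -0.37, 28.7% decreased and 7.85% increased, and H3K4me2 -0.22. With a pseudocount of 1, H3K4me1 had -0.41, 18.3% decreased and 0.961% increased, H3K4me2 -0.27, 17.4% and 1.20%, and H3K4me3 had 1.32% decreased and 3.08% increased. With the weakest 25% of peaks left out, H3K4me1 had -0.25, 15.1% decreased and 5.85% increased, H3K4me2 -0.066 and 7.67% decreased, and H3K4me3 0.725% decreased and 4.35% increased. At distal peaks H3K4me1 had -0.68, 37.9% decreased and 3.21% increased, and H3K4me2 -0.46.

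With 8 or more factors 20.9%, and with 6 or more of 14 factors 21.8%, were decreased in H3K4me2. Names counted in the poised list gave 1080 regions and 14 factors gave 1130, both of which count fewer names. The mean share over the 17 factors, 44.2%, was 39.0% at 5 or more and 54.3% at 8 or more factors, by construction. At an overlap of 50% of the region 51.7% had an H3K4me1, 22.8% an H3K4me2 and 7.83% an H3K4me3 peak. Shares of single factors left their interval in 44 of 68 cases, 33 of them at another factor count. Apart from the construction of a setting, causes were not tested. Depth is unknown, and differences between the lines carry no error between libraries.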
